A study of Mus musculus with 6 samples.

Results

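The serum amyloid A and pentraxin genes are 6 genes that encode plasma proteins of the acute-phase response. They were taken from the deposited count table by symbol, and the table held all 6 of them, Saa1, Saa2, Saa3, Saa4, Apcs and Crp, among 43346 genes. They were measured by RNA sequencing in 6 mouse liver tumours raised by DEN (diethylnitrosamine), a carcinogen that acts in hepatocytes. All 6 tumours came from mice that overexpress the sulfatase SULF2 (SULF2-TTR), 3 with wild-type Gli1 (WT) and 3 with Gli1 knocked out (KO). The age and sex of the mice, the deleted part of Gli1, the promoter and species of the SULF2 transgene and the number of animals behind the tumours are not given in the sources used here. There was no library of normal liver or of mice without the transgene. The study set out to learn what GLI1, a transcription factor of the Hedgehog pathway, does in tumours that SULF2 promotes.

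Serum amyloid A proteins are small apolipoproteins carried mainly on high-density lipoprotein (HDL). Saa1 and Saa2 are the acute-phase forms, which hepatocytes make in large amounts after injury or infection, and Saa1 protein can deposit as amyloid. Saa3 is also induced by inflammation and is made in macrophages and adipocytes as well as in liver, and Saa4 is the constitutive form. Interleukin-6 acting through STAT3, and interleukin-1 acting through NF-kB, together with C/EBP factors, are the main known inducers. The pentraxins are ring-shaped pattern recognition proteins that bind microbes and dead cells and recruit complement. Apcs encodes serum amyloid P component, the main acute-phase pentraxin of the mouse and a constant companion of amyloid fibrils, and Crp encodes C-reactive protein, which is the main acute-phase pentraxin of humans but responds little in mice.

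The libraries held between 75205624 and 132979502 reads counted to genes. Gli1 itself had 7 to 20 reads in the WT libraries and 3 or 4 in the KO libraries, in the direction of the labels. WT replicate 3 and KO replicate 1 lay together at one end of the first principal component, which held 42.7% of the variance. The labels do not say whether the tumours came from separate animals, so p-values measure the spread between these samples. In bulk tumour RNA, fewer cells of a type and less RNA per cell cannot be told apart.

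The 4 serum amyloid genes lay side by side on chromosome 7, from 46711998 to 46754314 in the deposited coordinates, with no other counted gene between them. In GENCODE M21, Saa3, Saa4 and Saa1 lie on the minus strand and Saa2 on the plus strand, so that Saa1 and Saa2 point away from each other. The pentraxin genes lay on chromosome 1, Crp from 172698055 to 172833031 on the plus strand and Apcs from 172893961 to 172895041 on the minus strand. The deposited coordinates of Crp and Apcs equal those of GENCODE M21, which is on GRCm38, and those of the 4 serum amyloid genes differ from it at one or both ends. Saa1, for example, starts at 46740501 in the table and at 46740497 in GENCODE M21, and Saa4 spans 46728017 to 46732543 against 46727998 to 46732603. All 6 are protein-coding genes and all 6 passed the filter on low counts.

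The 250 bases before the start site of Saa1 and Saa2, the pair with the highest Pearson correlation in these tumours, are shown with those of Saa3 and Apcs. The sequences are from RefSeq on GRCm38.p6, which matched all 6 genes, and read 5′ to 3′ along the strand of the gene. They cover chr7:46742981-46743230 (minus strand) for Saa1, chr7:46751583-46751832 (plus strand) for Saa2, chr7:46715677-46715926 (minus strand) for Saa3 and chr1:172895055-172895304 (minus strand) for Apcs. Capitals mark matches to 5 short motifs searched on both strands.

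Saa1: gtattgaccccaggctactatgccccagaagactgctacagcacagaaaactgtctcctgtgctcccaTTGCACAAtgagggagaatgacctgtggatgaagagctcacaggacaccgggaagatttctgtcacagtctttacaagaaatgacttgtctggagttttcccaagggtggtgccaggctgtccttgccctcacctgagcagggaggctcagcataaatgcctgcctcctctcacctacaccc

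Saa2: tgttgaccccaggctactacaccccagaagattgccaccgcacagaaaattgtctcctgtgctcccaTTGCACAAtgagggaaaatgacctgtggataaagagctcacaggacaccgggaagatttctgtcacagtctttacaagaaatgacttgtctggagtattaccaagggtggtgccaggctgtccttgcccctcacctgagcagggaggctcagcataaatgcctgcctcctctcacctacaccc

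Saa3: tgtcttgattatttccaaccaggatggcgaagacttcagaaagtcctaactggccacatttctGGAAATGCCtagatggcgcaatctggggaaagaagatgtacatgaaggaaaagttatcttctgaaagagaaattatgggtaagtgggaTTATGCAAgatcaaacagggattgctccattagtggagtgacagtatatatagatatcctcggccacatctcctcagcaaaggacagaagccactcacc

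Apcs: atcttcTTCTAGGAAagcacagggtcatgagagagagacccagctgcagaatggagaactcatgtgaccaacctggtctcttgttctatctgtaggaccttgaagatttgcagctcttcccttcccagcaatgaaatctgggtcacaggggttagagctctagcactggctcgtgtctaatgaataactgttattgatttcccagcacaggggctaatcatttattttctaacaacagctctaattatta

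The Saa1 and Saa2 sequences were 94.8% identical, with 11 mismatches and 2 gap positions, whereas the other pairs of these 6 promoters were 44.9 to 49.8% identical in a global alignment. Both held the C/EBP motif TTGCNNAA as TTGCACAA, at 182 to 175 bases before the start in Saa1 and at 183 to 176 in Saa2. Saa3 held the same motif on the other strand at 99 to 92 bases and the NF-kB motif GGNNTTTCC on the other strand at 187 to 179 bases. Apcs held the STAT motif TTCNNNGAA at 244 to 236 bases before the start. Among the promoters not shown, Saa4 held 2 C/EBP matches and Crp held a TATAAA match at 31 to 26 bases. These matches did not overlap one another. Over all 32851 promoters of the same length, 9.56% held the C/EBP motif, 4.93% the NF-kB motif, 7.02% the STAT motif and 12.4% TATAAA. The HNF1 motif GTTAATNNT, held by 2.27% of promoters, was not among these letters in any of the 6 genes.

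The transcripts of Saa1 and Saa2 were 93.9% identical. Of the 560 windows of 50 bases in the Saa1 transcript, 14.8% also occurred in Saa2 or Saa3, as did 13.3% of the Saa2 windows in Saa1, while 0 windows of 100 bases were shared. With no read length stated in the labels, the split of counts between Saa1 and Saa2 is uncertain for reads from those stretches. Apcs shared 0 of 922 windows of 50 bases with any other gene.

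Per kilobase, Apcs was the most abundant of the 6 genes in every tumour and Saa3 the least. The deposited RPKM values (reads scaled to the listed coding length in kilobases and to library size) had medians over the 6 libraries of 249.3 for Apcs, 98.3 for Saa1, 73.5 for Saa4, 51.3 for Crp, 41.9 for Saa2 and 4.97 for Saa3. Apcs ranged from 161.0 to 422.1 RPKM and Saa1 from 12.3 to 117.9, so that the ranges of these neighbours did not overlap. Each of the other neighbours in this order overlapped in range. Saa1 was above Saa4 in 3 of 6 libraries, Saa4 above Crp in 5, Crp above Saa2 in 4 and Saa2 above Saa3 in 6 of 6.

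The place of Crp in that order depends on its length. The table lists 3444 bases for Crp, which is the union of the exons of both GENCODE transcripts and takes in an exon of 1749 bases that starts 131321 bases beyond the end of the protein-coding transcript. That transcript has 1695 bases. Divided by its length, the Crp values would be 2.03 times as large, with a median of 104.2 RPKM and a range of 75.5 to 187.4, close to the median of Saa1. How many reads came from the far exon is not known from the table, so both values are given. Fold changes of Crp between libraries do not depend on this length.

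**Figure D1:**
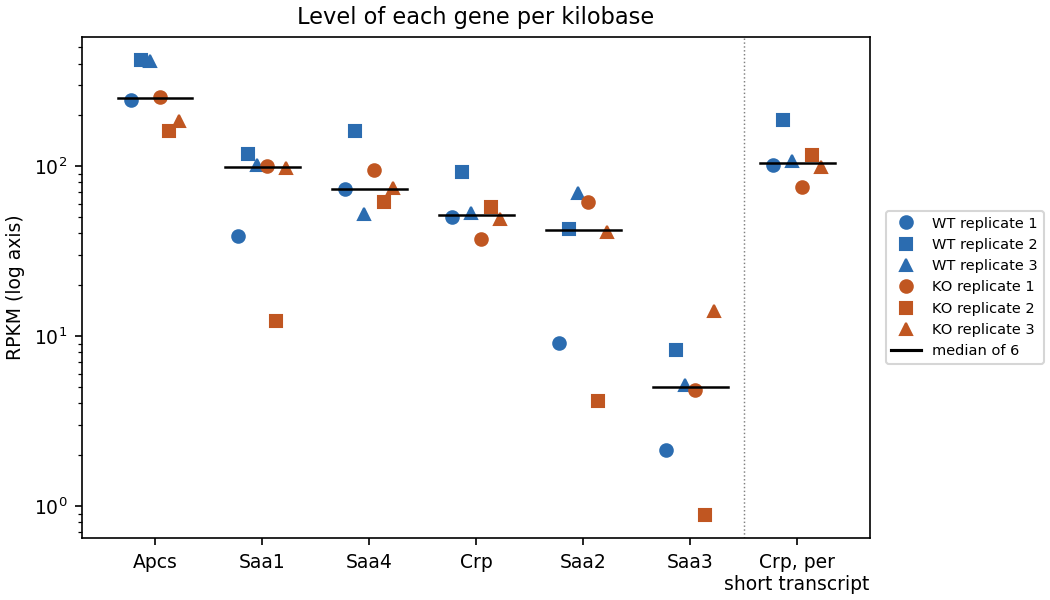
Deposited RPKM of each gene (y axis, log scale) in the 6 tumours, blue for Gli1 WT and orange for Gli1 KO, with marker shape for the replicate number and a black bar at the median of 6. Apcs lies highest in every tumour, at 161.0 to 422.1, and the last column shows Crp divided by its protein-coding transcript of 1695 bases.

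No gene passed the test between genotypes. Of the 18359 genes tested by edgeR's quasi-likelihood test, 0 (0%) passed a false discovery rate (FDR) of 0.05, with 665 at an unadjusted p under 0.05, and DESeq2 called 64. Of the 6 serum amyloid and pentraxin genes, 0 passed in edgeR and 0 in DESeq2. On normalized CPM (read counts scaled to library size with TMM factors), 5 of the 6 were lower in KO and 1 higher, with a median log2 fold change of -0.52, against -0.01 over all genes tested, of which 51.8% were lower. The genotypes were free of overlap for 1 of the 6, Apcs, with KO below WT. Over all genes, KO lay below WT without overlap for 3.96% and above for 4.15%, and an unadjusted p under 0.05 was reached by 2.02% as lower and 1.60% as higher in KO.

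Saa1 (ENSMUSG00000074115), the major acute-phase form, had normalized CPM of 30.4, 84.5 and 74.7 in WT replicates 1, 2 and 3 and of 62.1, 8.40 and 61.3 in KO replicates 1, 2 and 3. The lowest tumour was KO replicate 2, followed by WT replicate 1, and the other 4 lay close together in both genotypes. The means were 63.2 ± 28.8 (SD, n = 3) in WT and 43.9 ± 30.8 in KO. With 3 tumours per genotype, the fitted difference was -0.53 ± 0.73 (log2 fold change, SE), and its 95% interval ran from -2.28 to 1.23 (edgeR FDR 1.00). Without KO replicate 2 it was -0.03.

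Saa2 (ENSMUSG00000057465), its close paralog, had 7.23, 30.9 and 51.8 CPM in WT replicates 1, 2 and 3 and 38.3, 2.85 and 26.2 CPM in the KO replicates. The same pair of tumours was lowest, KO replicate 2 and then WT replicate 1, and WT replicate 3 was highest. Within WT the highest tumour had 7.16 times the level of the lowest, and within KO 13.4 times. The log2 fold change of -0.42 ± 0.97 (95% interval -2.74 to 1.90) did not pass (edgeR FDR 1.00). Its direction rested on single libraries, with 0.24 without WT replicate 3 and 0.11 without KO replicate 2.

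Saa1 exceeded Saa2 in read count in every tumour, by a ratio that differed between tumours of 1 genotype. It was 4.21, 2.73 and 1.44 in WT replicates 1, 2 and 3 and 1.62, 2.94 and 2.34 in the KO replicates. The ratio is taken within a library and does not depend on scaling, and the WT range covered the KO range. It was lowest in WT replicate 3 and KO replicate 1, the tumours at one end of the first principal component. With the counts of both genes summed, the tumours had 37.7, 115.4 and 126.4 CPM in WT and 100.4, 11.2 and 87.5 CPM in KO, and the log2 fold change was -0.49.

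Saa3 (ENSMUSG00000040026), the form also made outside the liver, was counted at 1.48, 5.17 and 3.35 CPM in WT replicates 1, 2 and 3 and at 2.61, 0.53 and 7.83 CPM in the KO replicates. KO replicate 3 was highest of all and KO replicate 2 lowest, so the KO tumours spanned the whole WT range and went beyond it on both sides. The lowest value rests on 70 reads, with a 95% exact Poisson interval of 54.6 to 88.4 that covers counting error only. The edgeR log2 fold change of 0.13 ± 0.91 (95% interval -2.04 to 2.30, FDR 1.00) had the opposite sign to the difference of the mean log2 CPM, which was -0.42. It was -1.09 without KO replicate 3 and 0.66 without KO replicate 2, so no direction can be given.

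Saa4 (ENSMUSG00000040017), the constitutive form, had 191.5, 380.0 and 128.5 CPM in WT and 194.6, 139.0 and 156.0 CPM in KO. All 3 KO tumours lay inside the WT range, and WT replicate 2 stood well above the other 5 tumours. The log2 fold change of -0.52 ± 0.41 (95% interval -1.49 to 0.46, edgeR FDR 1.00) was 0.03 without that tumour.

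Apcs (ENSMUSG00000026542), serum amyloid P component, was the only one of the 6 whose genotypes did not overlap. It was counted at 308.4, 485.1 and 490.9 CPM in WT replicates 1, 2 and 3 and at 254.3, 176.3 and 185.9 CPM in the KO replicates. All 3 KO tumours lay below the lowest WT tumour. The mean was 428.1 ± 103.8 (SD, n = 3) in WT and 205.5 ± 42.6 in KO. In log2 terms KO differed from WT by -1.06 ± 0.28 (SE over 3 tumours per genotype), with a 95% interval of -1.72 to -0.40 and an unadjusted edgeR p of 0.00684. It did not pass edgeR's adjustment over all genes (FDR 1.00) or that of DESeq2 (adjusted p = 0.108). By p it stood at place 87 of 18359 genes. The exact permutation test (two-sided, on log2 CPM) cannot go below p = 0.1 with groups of 3, and it gave that value.

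The separation of Apcs was narrow and depended on the scaling of the libraries. On CPM of the summed counts without TMM factors, KO replicate 1 had 279.4 and WT replicate 1 had 277.7, so that the groups overlapped, and in the deposited RPKM these were 255.0 and 243.6. TMM factors were 0.90 for WT replicate 1 and 1.10 for KO replicate 1. Without TMM factors the log2 fold change was -0.90 ± 0.30, and the median of all genes moved by 0.16. A change of scaling moves all genes nearly alike. The distance of Apcs from that median, -1.05 under both scalings, therefore cannot tell which scaling is right. Leaving out each library in turn gave -1.25 to -0.95, and leaving out WT replicate 3 and KO replicate 1 together gave -1.12.

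Crp (ENSMUSG00000037942), C-reactive protein, had 224.6, 375.6 and 220.4 CPM in WT replicates 1, 2 and 3 and 131.4, 221.5 and 174.9 CPM in the KO replicates. The lower 2 KO tumours lay below all WT tumours, and KO replicate 2 lay between WT replicates 3 and 1. The log2 fold change of -0.64 ± 0.31 had a 95% interval of -1.37 to 0.10 and did not pass (unadjusted p = 0.0797, edgeR FDR 1.00). It was -0.34 without WT replicate 2, the tumour with the most Crp. Apcs exceeded Crp in read count in 5 of the 6 tumours, and in KO replicate 2 the ratio of Apcs to Crp was 0.80. Read counts do not allow for gene length. Per kilobase, Apcs was above Crp in KO replicate 2 also, at 161.0 against 57.1 RPKM. Divided by its protein-coding transcript, Crp had 116.0 RPKM there.

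The labels also carry a sample number, which they do not explain. It was under 2000 for WT replicate 1 and KO replicates 1 and 3, and above 3900 for the other 3 tumours. With this split as a term in the edgeR fit, the log2 fold change was -0.98 for Apcs, -0.49 for Crp and -0.50 for Saa4. It was -1.11 ± 1.28 for Saa1 and -0.84 ± 2.22 for Saa2. Both were further below 0 than without the term, but with SEs larger than the 0.73 and 0.97 found without it. Saa3 changed sign, from 0.13 ± 0.91 to -0.58 ± 1.71. With the term, 0 genes passed FDR 0.05.

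**Figure D2:**
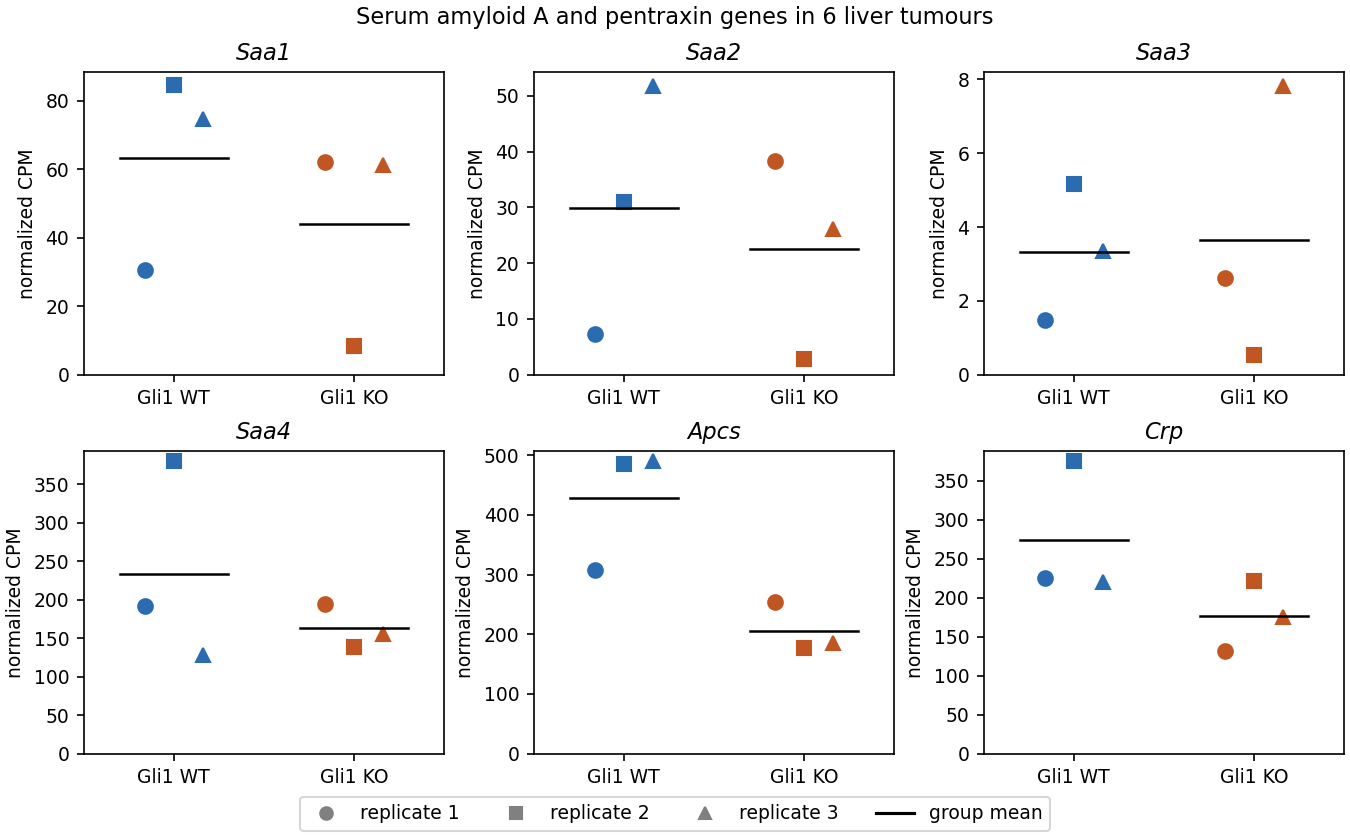
Normalized CPM of each gene (y axes, from 0) in Gli1 WT (blue) and Gli1 KO (orange) tumours, with marker shape for the replicate number and a black bar at the group mean. KO replicate 2 is lowest for Saa1, Saa2, Saa3 and Apcs, and Apcs is the only gene whose 3 KO points (176.3 to 254.3) all lie below its WT points (308.4 to 490.9).

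**Figure D3:**
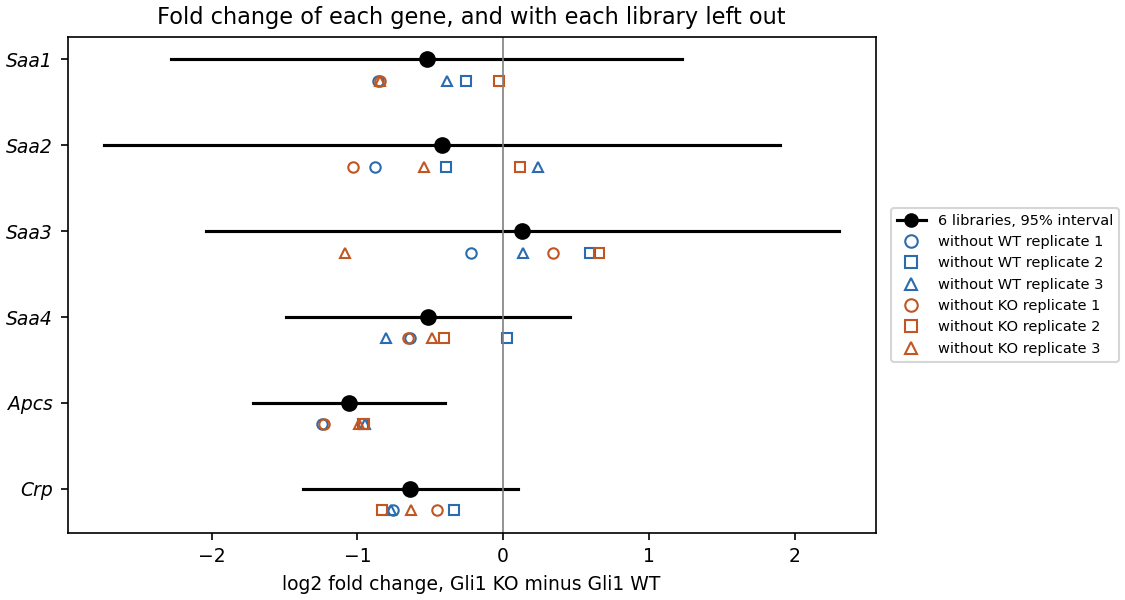
Log2 fold change of each gene, KO minus WT (x axis), with black points and 95% intervals for the 6 libraries and open markers for fits that leave out 1 library. The interval of Apcs, -1.72 to -0.40, is the only one that does not include 0, and the open markers of Saa2, Saa3 and Saa4 fall on both sides of 0.

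The 6 genes differed in how much they varied between tumours of the same genotype. The standard deviation of log2 CPM within genotype was 1.30 for Saa1, 1.77 for Saa2 and 1.51 for Saa3, which are the 93.6th, 97.5th and 95.6th percentiles of the 18359 genes tested. It was 0.59 for Saa4, 0.41 for Crp and 0.34 for Apcs, at the 69.9th, 53.2nd and 43.3rd percentiles, against a median of 0.38 over all genes. Within WT and within KO, the highest tumour had 2.77 and 7.39 times the lowest for Saa1. These ratios were 7.16 and 13.4 for Saa2 and 3.50 and 14.9 for Saa3. They were 2.96 and 1.40 for Saa4, 1.70 and 1.69 for Crp and 1.59 and 1.44 for Apcs. Over all 6 tumours, genotype difference included, the ratio was 10.1 for Saa1, 18.2 for Saa2 and 14.9 for Saa3. It was 2.96 for Saa4, 2.86 for Crp and 2.79 for Apcs. KO replicate 2, the lowest tumour for Saa1, Saa2 and Saa3, was the most deeply sequenced library, at 132979502 reads.

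**Figure D4:**
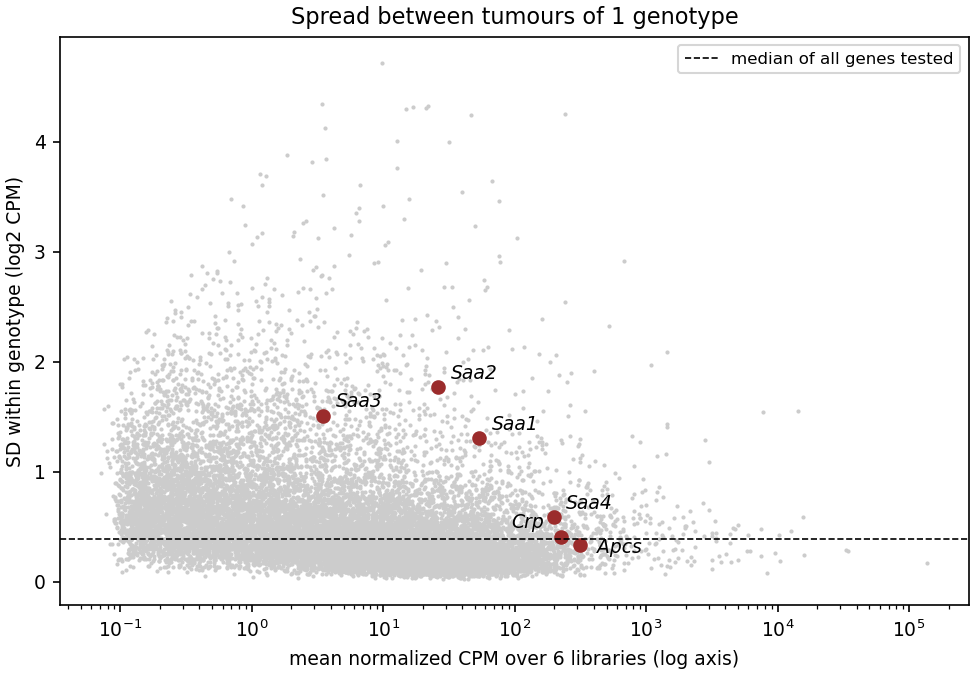
Standard deviation of log2 CPM within genotype (y axis) against mean normalized CPM (x axis, log scale) for the 18359 genes tested (grey), with the 6 genes in red. Saa1, Saa2 and Saa3 lie at 1.30 to 1.77, well above the dashed median of 0.38, and Saa4, Crp and Apcs lie at 0.34 to 0.59.

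Saa1, Saa2 and Saa3 had the highest Pearson correlations with one another across the 6 tumours, an order that ranks did not keep. Over 6 libraries Pearson's r of log2 CPM was 0.95 between Saa1 and Saa2 (Spearman's rho 0.83), 0.90 between Saa1 and Saa3 (0.66) and 0.83 between Saa2 and Saa3 (0.49). KO replicate 2 was the lowest tumour for all 3. Apcs had r of 0.62 with Saa1 (rho 0.77), 0.57 with Saa2 (0.71) and 0.35 with Saa3 (0.31), so that by rank it followed Saa1 and Saa2 more closely than Saa3 did. Saa4 had r of 0.41 with Saa1 (rho 0.37), 0.21 with Saa2 (0.03) and 0.35 with Saa3 (0.20). Crp had r of 0.05 with Saa1 (rho 0.09), -0.11 with Saa2 (-0.37) and 0.05 with Saa3 (-0.14). The remaining pairs were Apcs and Crp at 0.57 (0.31), Saa4 and Crp at 0.58 (0.26) and Saa4 and Apcs at 0.45 (0.09). These 15 pairs are descriptions over 6 libraries that share 1 scaling, with no test.

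Among 13867 genes with a mean of at least 1 CPM, those most like each of the 6 were found by Pearson's r over the 6 libraries. With so many genes and so few libraries, high values occur for any gene. Saa1 was most like Gm16551 (0.98), Orm2 (0.97) and Arhgap6 (0.97). Orm2 encodes an alpha-1-acid glycoprotein, another acute-phase plasma protein, and had 4.55, 19.2 and 11.6 CPM in WT and 7.42, 0.71 and 6.19 CPM in KO, with the same lowest pair of tumours as Saa1. Saa2 was most like Car2, Bdh2 and Gm20489 (0.99 each). Saa3 was most like Gm12174 and BC023829 (0.98 each) and Orc2 (0.97). These varied far less than Saa3, with Gm12174 at 12.3 to 13.6 CPM and Orc2 at 5.48 to 7.47 CPM over the 6 tumours. Saa4 was most like Gm26965 and Lrch1 (0.99 each) and 2310043M15Rik (0.98). Apcs was most like Rpl8 (0.99), a ribosomal protein gene, and Rasgrp1 and Ifitm1 (0.98 each). Crp was most like Sesn1 (0.99), Tfr2 (0.99), the hepatocyte transferrin receptor that senses iron, and Rims3 (0.98).

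Of the cytokines and receptors that induce these genes, 12 of 15 could be tested and 0 passed FDR 0.05. The median log2 fold change of the 12 was -0.27, with 8 lower, 4 higher and 1 without overlap, KO below WT. It was -0.50 without WT replicate 1 and -0.49 without KO replicate 2. Over all genes tested, 51.8% were lower in KO and 3.96% had KO below WT without overlap. Il1a, an interleukin-1 ligand, had 3.41, 4.20 and 10.2 CPM in WT and 1.33, 1.82 and 2.27 CPM in KO (log2 fold change -1.72 ± 0.48, edgeR FDR 1.00). Il1b, the other main ligand, had 1.40, 6.83 and 12.2 CPM in WT and 1.77, 1.12 and 1.16 CPM in KO (-2.34 ± 0.73). WT replicate 1, which was second lowest for Saa1, Saa2 and Saa3, had Il1b at the KO level. The KO tumours differed in Saa1 at similar Il1b, with 62.1, 8.40 and 61.3 CPM of Saa1 in KO replicates 1, 2 and 3. A link between Il1b and the 6 genes was not tested. The receptor Il1r1 was at -1.25 ± 0.64. Il6 stayed at or under 0.10 CPM in all 6 tumours and Il22 had no reads.

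The signal mediators and transcription factors numbered 18, all tested, of which 0 passed. Their median was -0.20, with 13 lower and 5 higher in KO and 4 with KO below WT. That median was -0.0077 without WT replicate 3 and -0.02 without TMM factors. Of all genes tested, 51.8% were lower in KO and 3.96% had KO below WT. Socs3, the feedback inhibitor of STAT3 signalling, had 44.5, 40.6 and 63.5 CPM in WT and 9.29, 5.91 and 6.61 CPM in KO (log2 fold change -2.77 ± 0.27, edgeR FDR 0.407), a wider gap than that of any of the 6 genes. Nfkbiz, an NF-kB cofactor needed for part of the interleukin-1 response, was at -0.84 ± 0.24 and Cebpb at -0.44 ± 0.19, both without overlap.

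The list of 24 other positive acute-phase genes, all tested, also had 0 past FDR 0.05. Its median was -0.59, with 21 lower, 3 higher and 5 with KO below WT, and it was -0.31 without WT replicate 3. The shares over all genes tested were 51.8% lower in KO and 3.96% with KO below WT. The metallothioneins Mt2 (-1.60 ± 0.47) and Mt1 (-1.29 ± 0.43) and the lipopolysaccharide-binding protein gene Lbp (-1.26 ± 0.41) had the smallest p. Of 10 negative acute-phase genes, whose products are made less in inflammation, 7 were lower and 3 higher, with a median of -0.07 (0.11 without TMM factors), 0 past FDR 0.05 and none free of overlap. Igf1 (-0.96 ± 0.67), Fetub (-0.23 ± 0.23) and Alb (-0.29 ± 0.31) had the smallest p among them.

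On the side of the proteins' partners, 0 genes passed either. Beside the counts in these lists, 51.8% of all genes tested were lower in KO and 3.96% had KO below WT. The 13 HDL proteins and lipid transfer genes had a median of -0.26, with 9 lower, 4 higher and 1 with KO below WT, which was Apoe (-0.46 ± 0.27). Their median was -0.11 without WT replicate 1 and -0.47 without WT replicate 3. Lipg was at 0.95 ± 0.56 and Pon1, an HDL-bound esterase, at -1.46 ± 0.97. Of the 9 serum amyloid A receptors, 8 were tested, with a median of -0.44, 5 lower, 3 higher and 1 with KO below WT. Without WT replicate 3 this median was 0.07, without WT replicate 1 it was -1.03 and without KO replicate 1 it was -0.96. The gene without overlap was Fpr2, a formyl peptide receptor on neutrophils and macrophages, with 0.80, 1.93 and 1.18 CPM in WT and 0.52, 0.41 and 0.56 CPM in KO (-1.39 ± 0.43). Fpr1 was at -1.40 ± 0.67 and Tlr4 at -1.16 ± 0.70.

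Partners of the pentraxins in complement and among Fc receptors had 13 of 14 genes lower in KO, a median of -0.39 (-0.69 without WT replicate 1 and -0.23 without WT replicate 3) and 1 gene with KO below WT. That gene was the inhibitory Fc receptor Fcgr2b, at 48.8, 41.0 and 35.8 CPM in WT and 19.4, 26.6 and 22.7 CPM in KO (-0.87 ± 0.19, edgeR FDR 1.00). The ficolin gene Fcna was at -1.63 ± 0.67 and the activating receptor Fcgr4 at -0.77 ± 0.45. Among all genes tested, 51.8% were lower in KO and 3.96% had KO below WT. Of 7 other pentraxins, Ptx3, Ptx4, Nptx2, Mptx1 and Mptx2 had no reads in any tumour, and the neuronal pentraxins Nptx1 (-0.24 ± 1.23) and Nptxr (-0.12 ± 0.71) stayed under 1 CPM.

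**Figure D5:**
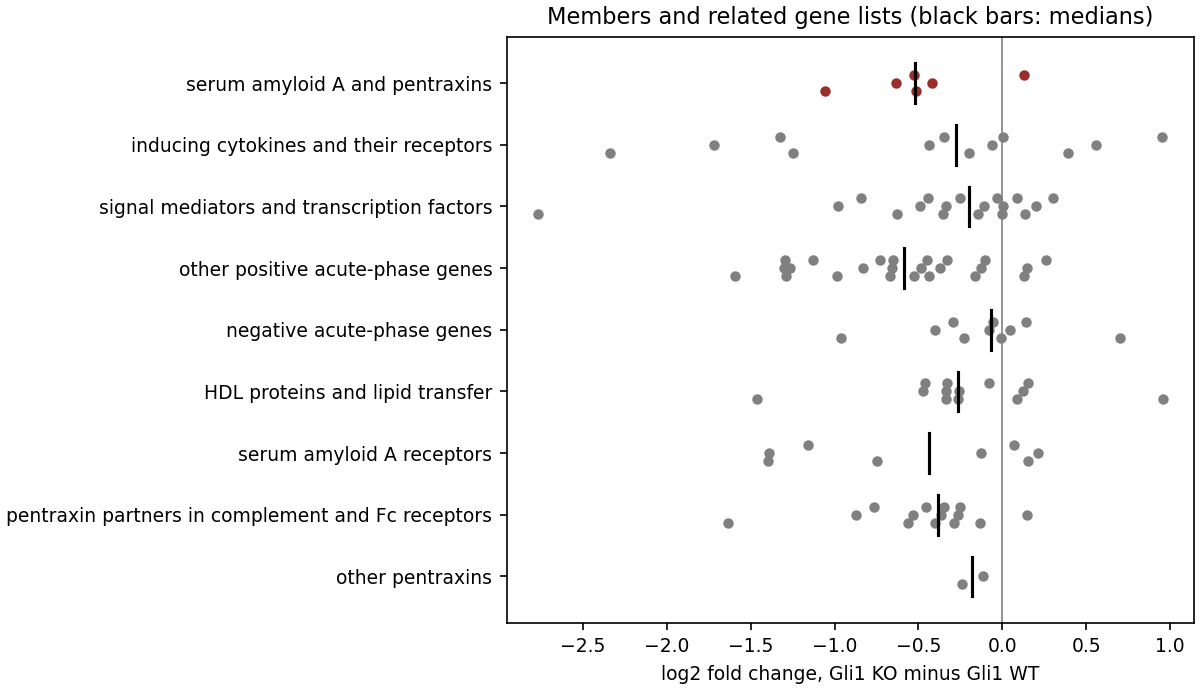
Log2 fold change, KO minus WT (x axis), of the 6 genes (red) and of the tested members of 8 related lists (grey), with black bars at the medians; vertical offsets within a row only separate points. The medians are -0.52 for the 6 genes, -0.59 for the other positive acute-phase genes (-0.31 without WT replicate 3) and -0.07 for the negative acute-phase genes.

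Markers of the cell types that can make or respond to these proteins were summed in each tumour. All 10 hepatocyte markers were expressed, at a sum of 151850 to 188388 CPM for WT tumours against 127416 to 154430 CPM for KO tumours, with 8 lower, 2 higher and a median log2 fold change of -0.31. Most of that sum was Alb, at 114643 to 167494 CPM over the 6 tumours. Summed macrophage and Kupffer cell markers lay between 149.6 and 518.8 CPM in WT tumours and between 135.8 and 221.0 CPM in KO tumours, with 9 of 10 lower. The summed neutrophil markers lay between 11.0 and 47.8 CPM in WT tumours and between 5.45 and 10.7 CPM in KO tumours, and 9 of the 9 tested were lower. KO replicate 2, the tumour with the least Saa1, Saa2 and Saa3, had the lowest neutrophil sum but not the lowest macrophage sum. The 6 adipocyte markers, of which 2 could be tested, summed to between 23.4 and 110.7 CPM over the WT tumours and between 45.5 and 98.5 CPM over the KO tumours. Nearly all of that sum was Fabp4, at 12.5 to 57.4 CPM, and Cidec, at 8.76 to 58.4 CPM. Cfd reached 2.13 CPM in WT replicate 2 and at most 0.12 CPM in the other tumours, and Adipoq, Plin1 and Lep stayed at or under 0.03 CPM in all 6. Sinusoidal endothelial markers had 6 of 8 lower in KO, with sums of 287.6 to 348.2 CPM in WT and 197.4 to 249.9 CPM in KO. Stellate cell markers had 7 of 8 higher, at 115.8 to 293.2 CPM in WT and 250.7 to 460.3 CPM in KO. T and NK cell markers had 7 of 8 lower, at 2.52 to 4.13 CPM in WT and 1.38 to 2.29 CPM in KO. B and plasma cell markers had 5 of 6 lower, at 7.54 to 60.8 CPM in WT and 6.75 to 20.5 CPM in KO. Cholangiocyte markers had 5 of 6 lower, at 39.0 to 480.8 CPM in WT and 75.4 to 471.6 CPM in KO. Of all genes tested, 51.8% were lower in KO. The part of these cell types in the values of the 6 genes was not tested.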

How the data were processed

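Total RNA of 6 mouse liver tumours, 3 per genotype, was sequenced on Illumina libraries, per the labels. The deposited table gives raw read counts per gene, RPKM and a coding length, with 1 column of each value per tumour. The tools were bcl2fastq, HTSeq and TopHat2 2.0.6, per the submitters' processing notes, which name the human builds hg19 and GRCh37 although the gene identifiers are mouse. Annotation, strand setting and read length are not given in the sources used here.

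These counts entered a test in R 4.3.3 with edgeR 4.0.16 (filterByExpr, TMM factors, robust quasi-likelihood fit of genotype, two-sided, Benjamini-Hochberg adjustment over 18359 genes, FDR 0.05). Log2 fold changes are KO minus WT. Log2 CPM used a prior count of 2, except in the permutation test and in the difference of mean log2 CPM given for Saa3, which used none. The RPKM values deposited by the authors were used to compare levels between genes and to check the separation of the genotypes for Apcs. The script was tested on simulated data. Alternatives were DESeq2 1.42.0, limma 3.58.1 (voom), other scalings and filters, and leaving out libraries. Leaving out 2 libraries together and library totals without TMM factors were chosen after seeing the data. Promoters came from RefSeq.

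The 6 genes and all lists were chosen with earlier results of these data known. The genes named are these 6, the 3 most like each, in each related list the 3 of smallest p, and in the marker lists genes at or near 0. Il6, Il22, the pentraxins without reads, Cfd, Fabp4 and Cidec fall outside this rule and were chosen after their values were seen. Counting intervals cover counting error only.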

Additional observations from a re-analysis of the deposited data

How the results depend on the processing

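None of the 6 genes passed FDR 0.05 under any alternative run. Of 116 values of their log2 fold changes under alternatives, 107 kept their direction and 9 reversed. Over all genes, 0 passed in each edgeR and voom alternative run and 64 passed in DESeq2, none of them among the 6. Saa3 reversed from 0.13 to -0.56 with limma voom, to -0.71 with voom and sample quality weights and to -0.58 with the sample number range as a term. The cause was not tested. Leaving out each library in turn gave -0.86 to -0.03 for Saa1, -1.03 to 0.24 for Saa2, -1.09 to 0.66 for Saa3, -0.81 to 0.03 for Saa4, -1.25 to -0.95 for Apcs and -0.83 to -0.34 for Crp. Saa3 was -0.22 without WT replicate 1 and -1.09 without KO replicate 3, Saa2 was 0.24 without WT replicate 3 and 0.11 without KO replicate 2, and Saa4 was 0.028 without WT replicate 2. The number of genes at an unadjusted p under 0.05 was 665 with all libraries and 1779 without WT replicate 3. Of 151 values of list medians, 12 moved. The serum amyloid A receptors went from -0.44 to 0.07 without WT replicate 3, and the signal mediators from -0.20 to -0.0077 without it and to -0.02 with voom and sample quality weights.

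The labels give both genotypes the same replicate numbers. Deviations from the group means correlated at -0.29, 0.18 and -0.34 for same-numbered samples, so the numbers were not taken to pair the tumours, and not every sample correlated best with its own number. With the replicate number as a block, 0 genes passed and 502 were at p under 0.05. The log2 fold changes with the block were -0.76 for Saa1, -0.77 for Saa2, -0.19 for Saa3, -0.37 for Saa4, -1.05 for Apcs and -0.62 for Crp. With 3 tumours per genotype, the 95% intervals of Saa1, Saa2 and Saa3 span more than 3 log2 units, while the counting error of a single library was at most 5.14% for Saa2, and Saa3 in KO replicate 2 rested on 70 reads.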
